A study of Mus musculus with 6 samples.

Results

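The nuclear genes for the subunits of oxidative phosphorylation were compared between wild-type (WT) and Abcc4-/- mouse samples. Members were the genes that the deposited count table lists as protein coding and whose symbols begin with Nduf followed by a, b, c, s or v, with Uqcr, with Atp5, or with Cox4, Cox5, Cox6, Cox7 or Cox8, together with Sdha, Sdhb, Sdhc and Sdhd. The 8 complex I assembly factors whose symbols begin with Ndufaf were left out. This gave 86 genes of 55573 in the table: 38 in complex I, 4 in complex II, 8 in complex III, 18 in complex IV and 18 in complex V. RNA was sequenced from 3 WT and 3 Abcc4-/- samples that the labels call megakaryocytes, the marrow cells that release platelets. The labels give the genotype and no treatment, age, sex or strain, and their titles contain CD41, a surface protein of megakaryocytes. Abcc4 encodes a membrane transporter that exports cyclic nucleotides and nucleotide-type drugs. The sources used here give neither how the cells were selected nor which part of Abcc4 was deleted.

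Oxidative phosphorylation takes place in the inner mitochondrial membrane. Complexes I and II pass electrons from NADH and succinate to ubiquinone, complex III hands them to cytochrome c, and complex IV gives them to oxygen. Complexes I, III and IV pump protons, and complex V, the ATP synthase, uses the returning protons to make ATP. Complex II is encoded in the nucleus alone, whereas the other complexes also hold subunits encoded in mitochondrial DNA. Megakaryocytes are rich in mitochondria and pass them on to platelets. NRF1, GABPA and YY1 are transcription factors known to act at the promoters of many respiratory genes.

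Total expected counts lay between 50440239 and 55123512 in the WT libraries and between 67009925 and 99294493 in the Abcc4-/- libraries. Each pair of libraries differed by more than sampling noise, with a chi-square of 11.5 or more per degree of freedom. Abcc4 levels in CPM, counts scaled to a common library size, were 74.2, 71.8 and 75.7 in WT and 60.1, 60.5 and 62.3 in Abcc4-/-, so Abcc4 fell by 0.28 on the log2 scale (edgeR quasi-likelihood test with Benjamini-Hochberg adjustment, adjusted p = 0.0026). Since the deleted part is not given, this value does not check the labels. Of 16 megakaryocyte markers, 11 were lower and 1 was higher in Abcc4-/-, with a summed level of 308 to 368 CPM in WT and 212 to 253 CPM in Abcc4-/-, and all 16 had counts. Of 18 neutrophil markers, 12 were higher and 1 was lower, with a summed level of 25980 to 33110 CPM in WT and 45130 to 47370 CPM in Abcc4-/-. Neutrophil transcripts were therefore far more abundant than megakaryocyte transcripts in these libraries: the neutrophil calcium-binding protein S100a9 had a mean of 33259 TPM, a level scaled by transcript length within each sample, and the platelet chemokine Pf4 had 96.9 TPM. Among the markers of other cells, 8 of 12 B cell, 9 of 12 T and NK cell and 3 of 12 erythroid genes were higher and none of these lower. Of the monocyte and macrophage markers 3 of 14 were lower, of the eosinophil, mast cell and basophil markers 5 of 12, and of the stem and progenitor markers 5 of 10, with none higher. Of all genes tested, 8.61% were called higher and 8.68% lower. In bulk samples such as these, fewer cells of a type and less RNA per cell cannot be told apart. The part of these marker differences in the values that follow was not tested.

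Of the 86 genes, 81 passed the filter on low counts. The 5 others had less than 1 count on average: Ndufa4l2, Cox7b2, Cox8b, Cox8c and a duplicate gene entry for Atp5o. The other Atp5o entry held its counts. In each library the 86 genes together took 0.685% to 0.785% of all counts. On the TPM scale they summed to 16228 ± 462 TPM in WT (SD, n = 3) and 16558 ± 295 TPM in Abcc4-/- (SD, n = 3).

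The levels of the genes differed between complexes more than between genotypes. Among the 79 genes with a mean of 10 TPM or more, the median level was 117 TPM in complex I, 130 TPM in complex II, 195 TPM in complex III, 297 TPM in complex IV and 308 TPM in complex V. Atp5b, the catalytic beta subunit of the ATP synthase, had the highest level of all members, with 869, 872 and 811 TPM in WT and 824, 820 and 814 TPM in Abcc4-/-. Its groups overlapped. Cox4i1, a subunit of complex IV found in nearly all tissues, came next with a mean of 606 TPM, and Cox8a followed with 528 TPM. A second gene entry on the same strand, Gm20388, covers Cox4i1, and it held a mean of 3128 counts beside 16300 for Cox4i1, so the division of reads between these entries is uncertain.

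The highest level in complex I was that of Ndufa4, with a mean of 292 TPM. Ndufa4 carries a complex I name, but its protein has also been assigned to complex IV. The highest in complex II was Sdhd, a membrane anchor, with 157 TPM, and the lowest was Sdhc, the other membrane anchor, with 68.2 TPM. In complex III, levels ran from 98.6 TPM for the core protein Uqcrc2 to 392 TPM for the hinge protein Uqcrh. Ndufb4 had the lowest level among the 79 genes, 23.3 TPM. A processed pseudogene of the same family, Ndufb4c, was listed at 100 TPM and is not a member. Reads from near-identical copies can be divided between such entries, so the level of Ndufb4 is uncertain.

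**Figure D1:**
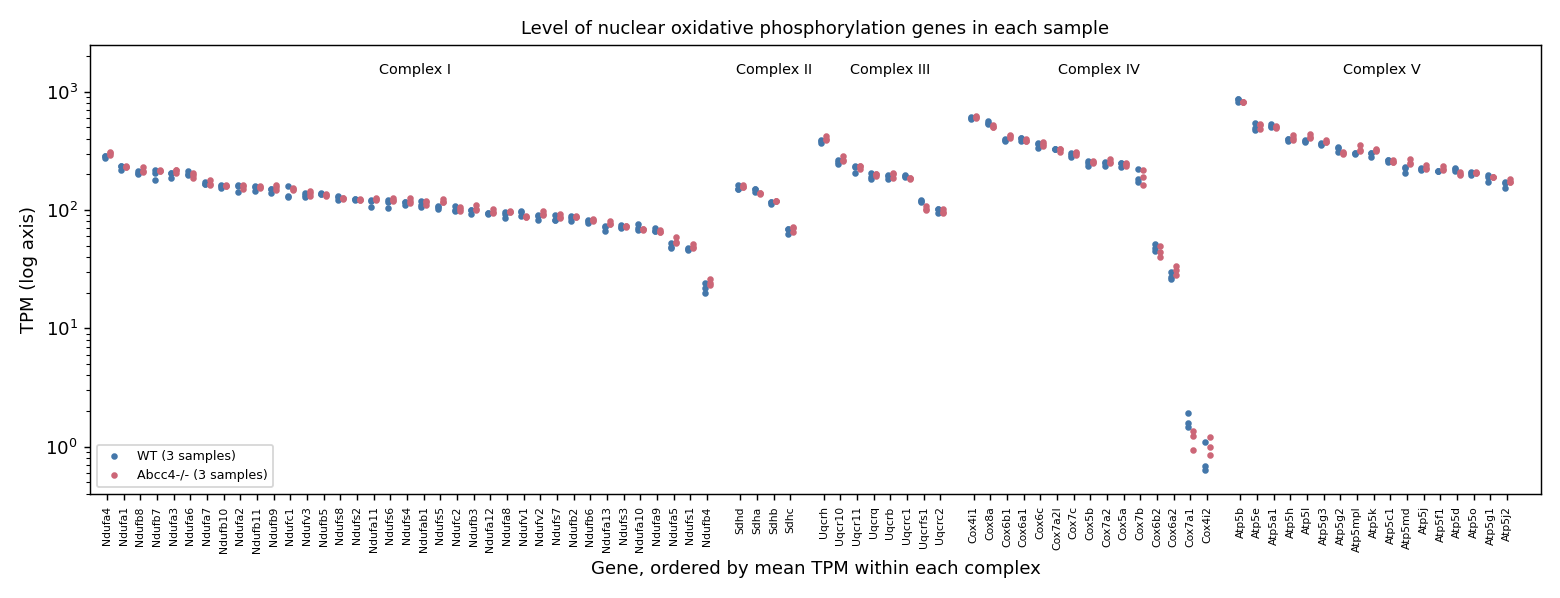
TPM of each nuclear subunit gene in each of the 6 samples on a log axis, ordered by mean TPM within complexes I to V, with WT in blue and Abcc4-/- in red. Points of the genotypes lie on top of each other for most genes, and Cox7a1 and Cox4i2 stand near 1 TPM, far below the others.

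Promoter sequence was examined because the members share regulators. RefSeq promoters of the mouse build GRCm38.p6 were matched to 69 members by symbol, giving 74 start sites, and the 250 bases before each start were searched on both strands. The NRF1 motif (GCGCA, then any base, then GCGC) was present in 18.9% of member promoters, compared with 3.74% of all 32851 promoters and 7.34% of promoters of tested genes. For the GABPA motif CCGGAAG the shares were 16.2%, 6.91% and 12.6%, and for the YY1 motif AANATGGC they were 8.11%, 3.91% and 4.42%. A match to any of these motifs is not in itself a match to another. At least 1 of the 3 motifs was found in 37.8% of member promoters, 13.4% of all promoters and 22% of promoters of tested genes. These matches describe letters in the sequence and do not show binding.

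The following 30-base sites are shown because each holds the NRF1 motif, in capitals, in at least 1 gene of complexes I, II, IV and V, among them 2 of the 3 genes called below. All lie on the minus strand and are written 5′ to 3′ along the gene, and the build is GRCm38.p6.
Ndufs5 (chr4:123718265-123718294): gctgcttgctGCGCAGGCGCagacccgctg
Ndufa5 (chr6:24527697-24527726): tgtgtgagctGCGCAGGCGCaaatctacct
Sdhd (chr9:50603909-50603938): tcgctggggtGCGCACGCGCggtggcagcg
Cox6a1 (chr5:115349101-115349130): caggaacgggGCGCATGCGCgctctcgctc
Atp5g2 (chr15:102671070-102671099): ggctccggccGCGCATGCGCagagccttcc
Atp5k (chr5:108434430-108434459): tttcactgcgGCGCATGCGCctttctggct
From the end of the motif to the RefSeq start site there were 88 bases in Ndufs5, 180 in Ndufa5, 69 in Sdhd, 152 in Cox6a1, 32 in Atp5g2 and 40 in Atp5k. The gene annotation used for positions places some starts further upstream, at 24528013 for Ndufa5, 102672352 for Atp5g2 and 108434448 for Atp5k. The sites of Ndufa5 and Atp5g2 thus lie inside the annotated gene, and that of Atp5k lies partly inside it. Of the 13 matched members that hold the NRF1 motif, Ndufs5 and Ndufa5 were called and the others were not. Among the others, the log2 fold change was 0.03 for Cox6a1 and -0.01 for Atp5g2. Ndufa13, the third called gene, had none of the 3 motifs in this window.

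The comparison of Abcc4-/- with WT gave small differences that mostly pointed upwards. Of the 81 tested genes, 3 were called higher in Abcc4-/- and 0 lower (edgeR, adjusted p below 0.05), where 8.61% of the 16493 genes tested were called higher and 8.68% lower. An unadjusted p below 0.05 was reached by 28 members, or 34.6%, and by 30.9% of all tested genes. DESeq2 called 6 members higher and 0 lower, or 7.41% higher, against 8.39% of all genes. The share of members called higher was below that of all genes in both of these fits (3.7% against 8.61% with edgeR) and in most others. It was above that of all genes only in the following fits. Without a filter on low counts, where 26780 genes were tested, it was 17.1% against 6.28%. With the replicate number as a block it was 13.6% against 9.26%, and without WT replicate 2 it was 7.41% against 6.61%. The log2 fold change was above 0 for 74 of 81 members, with a median of 0.11. Over all tested genes 50.2% were above 0, and the median was 0.00091. Protein-coding genes outside the set whose exon length lay in the central range of the members had a median of 0.025, with 56.2% above 0. Those of them at or above the lowest level among members at 10 TPM or more had a median of 0.038. Of these genes 62.4% were above 0 and 12.2% were called higher. The groups did not overlap for 26 members that were higher in Abcc4-/- and for 1 that was lower, where the shares over all genes were 18.4% and 18.3%. The 95% confidence interval lay between a 25% increase and the matching decrease for 67 of the 81 members. That held for 7762 of the 16493 genes tested, whose median level was 11.3 TPM, against 169 TPM for the tested members.

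The shift was smaller without 2 of the libraries. WT replicate 3 was the lowest of the 6 libraries for 72 of the 79 genes at 10 TPM or more, and its members lay at a median of -0.15 from the mean of the 6 libraries on the log2 scale. Abcc4-/- replicate 1 was the highest for 60 of the 79, with a median deviation of 0.11. The medians in the other libraries were -0.03 in WT replicate 1, 0.02 in WT replicate 2, 0.05 in Abcc4-/- replicate 2 and -0.00018 in Abcc4-/- replicate 3. WT replicate 3 and Abcc4-/- replicate 1 were also the lowest and highest libraries for the summed neutrophil markers (25980 and 47370 CPM) and for the summed T and NK cell markers (109.3 and 162.8 CPM). The other marker lists differed. The B cell sum was lowest in WT replicate 1 (581.5 CPM) and highest in Abcc4-/- replicate 1 (1202 CPM). The stem and progenitor and the eosinophil, mast cell and basophil sums were highest in WT replicate 3 and lowest in Abcc4-/- replicate 1. The megakaryocyte and erythroid sums were also lowest there (212 and 642.8 CPM). The monocyte and macrophage sum was highest in WT replicate 1 and lowest in Abcc4-/- replicate 3. Without WT replicate 3 the median of the members lay 0.06 above that of all genes, and without Abcc4-/- replicate 1 it lay 0.085 above, against 0.11 with all libraries. Leaving out 1 of the other libraries gave 0.12 (WT replicate 1), 0.14 (WT replicate 2), 0.11 (Abcc4-/- replicate 2) and 0.13 (Abcc4-/- replicate 3). Without both WT replicate 3 and Abcc4-/- replicate 1, the difference was 0.03, and 55 of 81 members were above 0. In that fit 0 were called higher and 1, Uqcrfs1, was called lower. The pair was picked by the members' own values, after seeing the data, so a smaller difference was built into the choice.

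**Figure D2:**
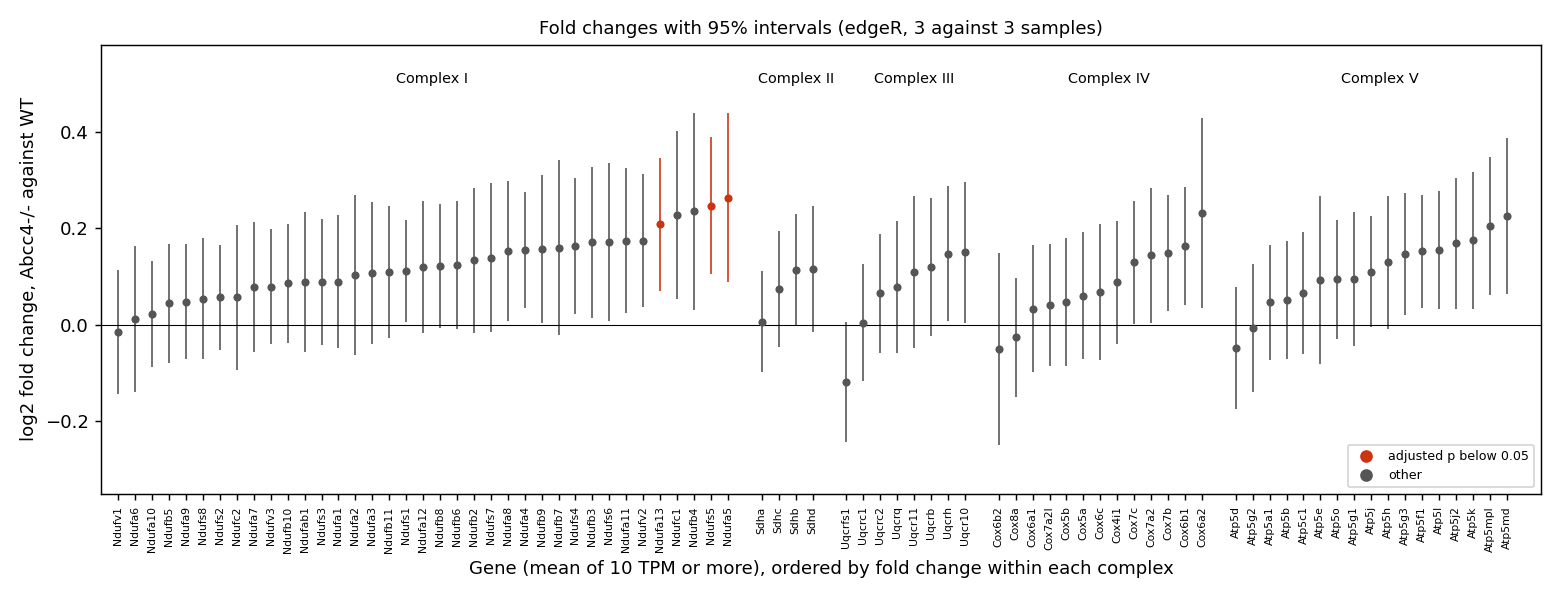
Log2 fold change of Abcc4-/- against WT for each nuclear subunit gene with a mean of 10 TPM or more, with its 95% confidence interval (edgeR, 3 samples each), ordered within complexes I to V. Most points lie between 0 and 0.2, and the 3 red genes of complex I, Ndufa13, Ndufs5 and Ndufa5, are those with an adjusted p below 0.05.

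Complex I had all 3 called genes, each an accessory subunit, that is, a subunit outside the catalytic core shared with bacteria. They were 3 of its 37 tested genes, where 8.61% of all tested genes were called higher. An unadjusted p below 0.05 was reached by 14 of the 37 (37.8%), against 41.2% in complex V and 30.9% of all tested genes. Ndufs5 (chr4:123712710-123718202) had 26.0, 27.8 and 24.2 CPM in WT and 32.7, 30.3 and 29.7 CPM in Abcc4-/-. Every Abcc4-/- sample lay above every WT sample. Ndufs5 rose by 18.6% (95% confidence interval 7.49% to 30.9%), a log2 fold change of 0.25 ± 0.065 (SE; edgeR, adjusted p = 0.023). On the TPM scale it rose from 105 ± 3.03 (SD, n = 3) to 119 ± 3.69 (SD, n = 3).

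Ndufa13, also known as GRIM-19, sits in the membrane part of complex I (chr8:69894180-69902558). Its values were 56.0, 58.5 and 50.5 CPM in WT and 63.6, 66.4 and 60.5 CPM in Abcc4-/-. The groups did not overlap, and Ndufa13 rose by 15.5% (95% confidence interval 5.03% to 27.0%; log2 fold change 0.21 ± 0.063, SE; edgeR, adjusted p = 0.041). The gene entry Yjefn3 lies over Ndufa13 on the same strand and held a mean of 8 counts, against 4076 for Ndufa13.

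Ndufa5 (chr6:24518666-24528013), a subunit of the arm that reaches into the matrix, had 12.6, 12.5 and 11.6 CPM in WT and 16.3, 14.0 and 13.7 CPM in Abcc4-/-. Again the groups did not overlap, and the highest value was that of Abcc4-/- replicate 1. Ndufa5 rose by 20.0% (95% confidence interval 6.25% to 35.6%; log2 fold change 0.26 ± 0.080, SE; edgeR, adjusted p = 0.043). None of the 3 calls held in every fit that left out 1 library: Ndufs5 and Ndufa13 each lost it in 4 of 6 such fits and Ndufa5 in 5 of 6, with 3 samples against 2. With all 3 of these genes, the log2 fold change stayed above 0 in each of the 6 fits.

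No other complex I gene was called, although the log2 fold changes of Ndufb4 (0.23) and Ndufc1 (0.23), named after their values were seen, were above that of Ndufa13. All 30 tested accessory subunits had a log2 fold change above 0, with a median of 0.12. The groups did not overlap for 12 of them, with Abcc4-/- higher, which held for 18.4% of all tested genes. The 7 nuclear core subunits, which carry out the electron transfer from NADH, had a median of 0.089 and none was called. Among the core genes, named after their values were seen, Ndufv2 had the highest fold change (log2 0.17) and Ndufv1, which binds NADH, the lowest. Ndufv1 had 86.1, 85.0 and 75.7 CPM in WT and 83.6, 82.2 and 78.3 CPM in Abcc4-/-, with overlapping groups. No test was made of the difference between core and accessory subunits. A further subunit gene, Ndufb1-ps, is entered as a long non-coding RNA in the table and is therefore not a member. It had a mean of 158 TPM and a log2 fold change of 0.16 (edgeR, adjusted p = 0.2).

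Complex II, which also belongs to the citric acid cycle, had no called gene among its 4 members, and none with an unadjusted p below 0.05. Sdhb, the iron-sulfur subunit, had 81.5, 83.5 and 76.0 CPM in WT and 89.0, 87.5 and 84.4 CPM in Abcc4-/-, so its groups were separate, with a log2 fold change of 0.11 ± 0.052 (SE; edgeR, adjusted p = 0.16). For Sdhd the log2 fold change was 0.12 ± 0.059 (SE; edgeR, adjusted p = 0.21), and the groups overlapped. Sdha, the flavoprotein that oxidises succinate, was named after its values were seen. It had 223, 222 and 214 CPM in WT and 225, 218 and 218 CPM in Abcc4-/-, a change of 0.446% with a 95% confidence interval from -6.61% to 8.03%. The summed level of the complex was 485 ± 12.1 TPM in WT and 485 ± 8.34 TPM in Abcc4-/- (SD, n = 3 each).

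In complex III, 7 of 8 genes had a log2 fold change above 0, with a median of 0.094 that ranged from 0.046 to 0.15 when each library was left out in turn. It was lowest without WT replicate 3. None was called, and 2 (25%) had an unadjusted p below 0.05, against 30.9% of all tested genes. Those with the smallest p were accessory subunits: Uqcrh, with 101.3, 104 and 91.8 CPM in WT and 118, 107 and 103 CPM in Abcc4-/-, and Uqcr10, with 48.3, 48.5 and 42.5 CPM in WT and 55.4, 50.2 and 49.1 CPM in Abcc4-/-. The Uqcrh groups overlapped and the Uqcr10 groups did not (edgeR, adjusted p = 0.14 and 0.15). The exception in direction was Uqcrfs1, the Rieske iron-sulfur protein that takes the electron from ubiquinol, named here after its values were seen. Its CPM values were 105, 103 and 98.5 in WT and 100.3, 93.3 and 88.4 in Abcc4-/-, with a log2 fold change of -0.12 ± 0.056 (SE; edgeR, adjusted p = 0.18). On log2(TPM + 1) without centring, where the median of all genes was -0.06, Uqcrfs1 was called lower (limma, adjusted p = 0.03). Cyc1, the cytochrome c1 gene of complex III, lies outside the naming rule for members and had a log2 fold change of 0.087 (edgeR, adjusted p = 0.27).

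Complex IV had 15 tested genes, a median log2 fold change of 0.067 and no call, with an unadjusted p below 0.05 for 5 genes (33.3%, against 30.9% of all tested genes). Cox6b1, which faces the intermembrane space, had 100.4, 102 and 91.8 CPM in WT and 114, 109.7 and 105.7 CPM in Abcc4-/-, with groups that did not overlap (log2 fold change 0.16; edgeR, adjusted p = 0.066). Cox7b had 72.2, 74.4 and 67.0 CPM in WT and 82.4, 76.8 and 77.5 CPM in Abcc4-/- (log2 fold change 0.15; edgeR, adjusted p = 0.09). For Cox7b the length-scaled values ran otherwise, with 184, 173 and 222 TPM in WT and 163, 189 and 219 TPM in Abcc4-/-. Those groups overlapped widely, and the log2 fold change on log2(TPM + 1) was -0.02. Of the members at 10 TPM or more, Cox7b had the largest gap between the TPM and count scales, -0.17, where the median gap was -0.071 over the members and -0.075 over all tested genes.

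Several complex IV subunits have isoforms that are typical of heart, skeletal muscle, lung or testis. The common isoform supplied nearly all transcripts in most of these sets. Cox4i1 made up 99.8% to 99.9% of the TPM of the Cox4 genes, and Cox4i2, the lung isoform, had a mean of 0.908 TPM. Cox7a1, the muscle isoform, lay at 1.57, 1.45 and 1.91 TPM in WT and 0.94, 1.22 and 1.35 TPM in Abcc4-/-. It was the only tested member whose CPM groups did not overlap with Abcc4-/- lower (log2 fold change -0.42 ± 0.32, SE; edgeR, adjusted p = 0.41). Cox8b, Cox8c and Cox7b2 had 0 counts in each library, which allows up to 3 counts, and Ndufa4l2 had a mean of 0.0133 TPM beside 292 TPM for Ndufa4.

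Other isoforms of restricted tissues reached higher levels. Cox6a2, the isoform of heart and muscle, had 29.7, 26.0 and 27.4 TPM in WT and 33.3, 31.1 and 28.4 TPM in Abcc4-/-. It made up 6.50% ± 0.456 of the Cox6a transcripts in WT and 7.37% ± 0.414 in Abcc4-/- (SD, n = 3 each). The integrin gene Itgad overlaps Cox6a2 on the opposite strand, and it had a mean of 351 counts beside 744 for Cox6a2. Cox6b2, the testis isoform, had 47.5, 51.1 and 45.2 TPM in WT and 40.1, 49.4 and 44.5 TPM in Abcc4-/-, with overlapping groups. Its share of Cox6b transcripts was 10.9% ± 0.513 in WT and 9.63% ± 1.02 in Abcc4-/- (SD, n = 3 each; two-sided exact permutation p = 0.1). Cox7a2l, which joins complexes III and IV in supercomplexes, supplied 57.1% ± 0.812 of Cox7a transcripts in WT and 55.5% ± 1.28 in Abcc4-/-, and Cox7a2 supplied most of the rest.

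Over the 17 tested genes of complex V the median log2 fold change was 0.11. None was called, and 7 (41.2%) had an unadjusted p below 0.05, against 30.9% of all tested genes. By position in the enzyme, the 5 subunits of the catalytic F1 head (Atp5a1, Atp5b, Atp5c1, Atp5d and Atp5e) had a median of 0.051, and the groups overlapped for all 5. The 4 tested peripheral stalk genes (Atp5f1, Atp5h, Atp5j and Atp5o) had a median of 0.12. The 5 small accessory subunits of the membrane part (Atp5j2, Atp5k, Atp5l, Atp5md and Atp5mpl) had a median of 0.17. The groups did not overlap for any of them, with Abcc4-/- higher, which held for 18.4% of all tested genes. These groups of subunits were set against each other after their values were seen, and the difference between them was not tested.

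Of the membrane accessory genes, Atp5mpl had 40.0, 42.8 and 38.7 CPM in WT and 50.8, 45.5 and 43.8 CPM in Abcc4-/- (log2 fold change 0.20 ± 0.065, SE; edgeR, adjusted p = 0.052). Atp5md, a subunit linked to ATP synthase dimers, had 27.9, 32.9 and 29.3 CPM in WT and 38.1, 33.3 and 33.8 CPM in Abcc4-/- (log2 fold change 0.22 ± 0.074, SE; edgeR, adjusted p = 0.057). On centred log2(TPM + 1), Atp5md was called higher (limma, adjusted p = 0.029). Atp5md and Ndufs5 were the only members called higher on that scale, where 6.88% of all tested genes were. Atp5j2 had 66.4, 68.6 and 59.1 CPM in WT and 76.2, 71.6 and 70.4 CPM in Abcc4-/-, with an adjusted p of 0.088 (edgeR). For Atp5k and Atp5l the adjusted p was 0.088 and 0.08 (edgeR).

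Subunit c, which forms the rotating ring, is encoded by 3 genes whose mature proteins are identical and whose import sequences differ. Atp5g2 supplied 37.6%, 37.6% and 37.3% of the summed TPM of these genes in WT and 34.6%, 34.9% and 34.6% in Abcc4-/-. These shares did not overlap, and their means were 37.5% ± 0.196 and 34.7% ± 0.177 (SD, n = 3 each). The two-sided exact permutation test gave p = 0.1 for Atp5g2, which is the minimum for 3 against 3 samples. Atp5g3 supplied 40.9%, 40.6% and 42.2% in WT and 44.1%, 43.0% and 43.6% in Abcc4-/- (two-sided exact permutation p = 0.1). Atp5g1 supplied 21.3% ± 0.651 and 21.8% ± 0.401, with overlapping values (two-sided exact permutation p = 0.5). Shares of CPM gave the same order, with Atp5g2 at 37.7% to 38.2% in WT and 35.5% to 35.9% in Abcc4-/-. The level of each of the 3 genes did not pass the test (log2 fold change 0.09 for Atp5g1, -0.01 for Atp5g2 and 0.15 for Atp5g3; edgeR, adjusted p = 0.34, 0.96 and 0.11). The c-ring genes were examined as 1 of 8 sets of isoforms, and no share could reach a p below 0.1. The exact permutation test gave that same minimum for the shares of Cox6a1, Cox6a2, Cox6b1, Cox6b2 and Cox7a1. It therefore does not set the c-ring genes apart.

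**Figure D3:**
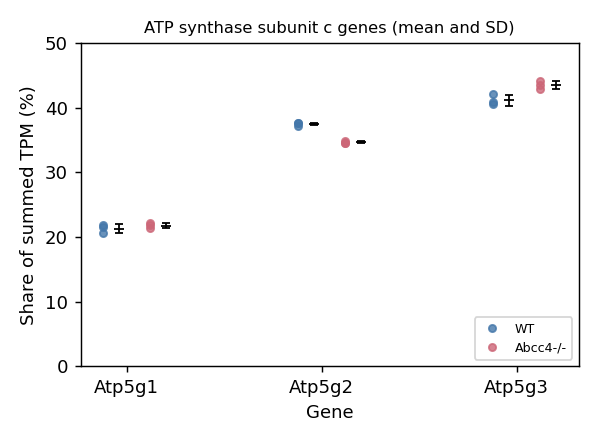
Share of each of the 3 subunit c genes in their summed TPM, in percent, for 3 WT and 3 Abcc4-/- samples, with the mean and SD beside the points. Atp5g2 lies near 37.5% in WT and 34.7% in Abcc4-/- with no overlap, and Atp5g3 lies higher in Abcc4-/-.

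When the genes of a complex were summed, the samples of the genotypes overlapped for every complex, on TPM as on CPM. The sum of complex I was 4585, 4698 and 4344 TPM in WT and 4768, 4703 and 4626 TPM in Abcc4-/-, a difference of 3.46%, with Abcc4-/- replicates 1 and 2 above each WT value. For complexes II to V the difference in summed TPM was 0.0488%, 2.03%, 0.436% and 2.17%. On CPM, which follows the reads and is not divided by length, the differences were 7.75%, 4.34%, 3.43%, 5.13% and 5.53% for complexes I to V. In all 10 sums WT replicate 3 was below the mean of the WT samples. The size of the shift also depended on the scale: on log2(TPM + 1) the median was 0.046 with 58 of 81 above 0, where all genes had a median of -0.063 with 32.8% above 0. After centring each sample, the median was 0.13 with 73 of 81 above 0, against 0.025 and 56.8% for all genes.

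**Figure D4:**
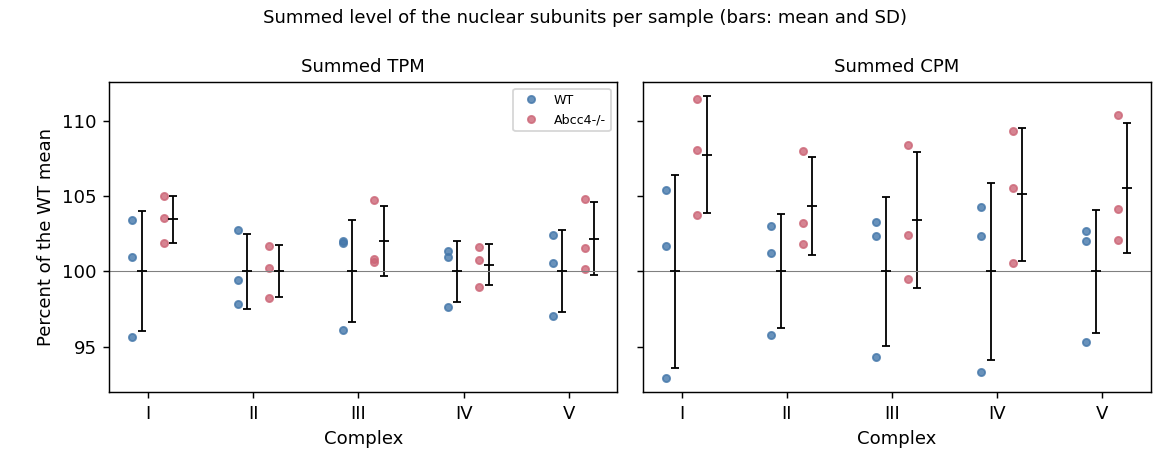
Summed level of the nuclear subunits of complexes I to V in each sample as percent of the WT mean, from TPM (left) and from CPM (right), with mean and SD for 3 WT and 3 Abcc4-/- samples. The lowest WT point lies well below the other WT points for most sums, and the genotypes lie closer together on TPM than on CPM.

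The 13 subunits encoded in mitochondrial DNA complete complexes I, III, IV and V. In the rows of these genes 4 were called higher in Abcc4-/- (mt-Nd1, mt-Nd6, mt-Cytb and mt-Co1) and 0 lower, and the log2 fold changes had a median of 0.21. Of all tested genes, 8.61% were called higher. The row of mt-Nd6 held few counts, 233 to 912 per library, against 77537 or more for mt-Nd1. The cytochrome b gene mt-Cytb had 1731, 2101 and 2101 CPM in WT and 2420, 2396 and 2404 CPM in Abcc4-/-, a log2 fold change of 0.28 (edgeR, adjusted p = 0.027). When each library was left out in turn, the call was lost in 2 of 6 fits for mt-Nd1, 3 for mt-Nd6, 4 for mt-Cytb and 5 for mt-Co1, and all 4 calls were lost without Abcc4-/- replicate 1. The adjusted p of mt-Cytb ranged from 0.0192 to 0.0912 in these fits. On log2(TPM + 1), mt-Nd6 was called (limma, adjusted p = 0.034). There mt-Nd1, mt-Cytb and mt-Co1 were not (limma, adjusted p = 0.066, 0.115 and 0.127). After centring, 3 of the 13 were called higher, and mt-Co1 was not (limma, adjusted p = 0.056). For the 13 genes together WT replicate 1, not WT replicate 3, was the lowest library, with a summed level of 13810 CPM against 16770 CPM in WT replicate 3. The summed level in Abcc4-/- was 18510 to 18900 CPM, above each WT library.

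Of the mitochondrial genes, 7 have nuclear copies that lie side by side on chromosome 1 (chr1:24611535-24616197, minus strand), and counts of 6 were divided with them. The copy of mt-Nd4, Gm28439, had 0 counts in every library. The copy Gm28437 is identical to mt-Co3 over 783 of 783 bases, and Gm28661 to mt-Co2 over 681 of 681. These copies took 97.1% to 99.1% of the joint counts of mt-Co3 and 97.5% to 99.3% of those of mt-Co2, and Gm10925 took 98.3% to 99.5% of those of mt-Atp6. Copies also took 92.95% to 96.33% of the joint counts of mt-Nd3 and 74.4% to 86.0% of those of mt-Nd4l. The rows of mt-Co2, mt-Co3, mt-Atp6, mt-Nd3 and mt-Nd4l therefore hold a minor and unsteady part of the reads. When each gene was summed with its copy, a step chosen after seeing the data, mt-Co2 went from a log2 fold change of -0.07 to 0.31 (edgeR, adjusted p = 0.019). mt-Co3 went from 0.82 to 0.13 and was called in neither fit (edgeR, adjusted p = 0.22 and 0.24). The summed values of mt-Co2 were 2570, 3188 and 2959 CPM in WT and 3711, 3542 and 3568 CPM in Abcc4-/-. With the summed rows 5 of the 13 genes were called higher and 0 lower, all 13 were above 0, and the median was 0.21.

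**Figure D5:**
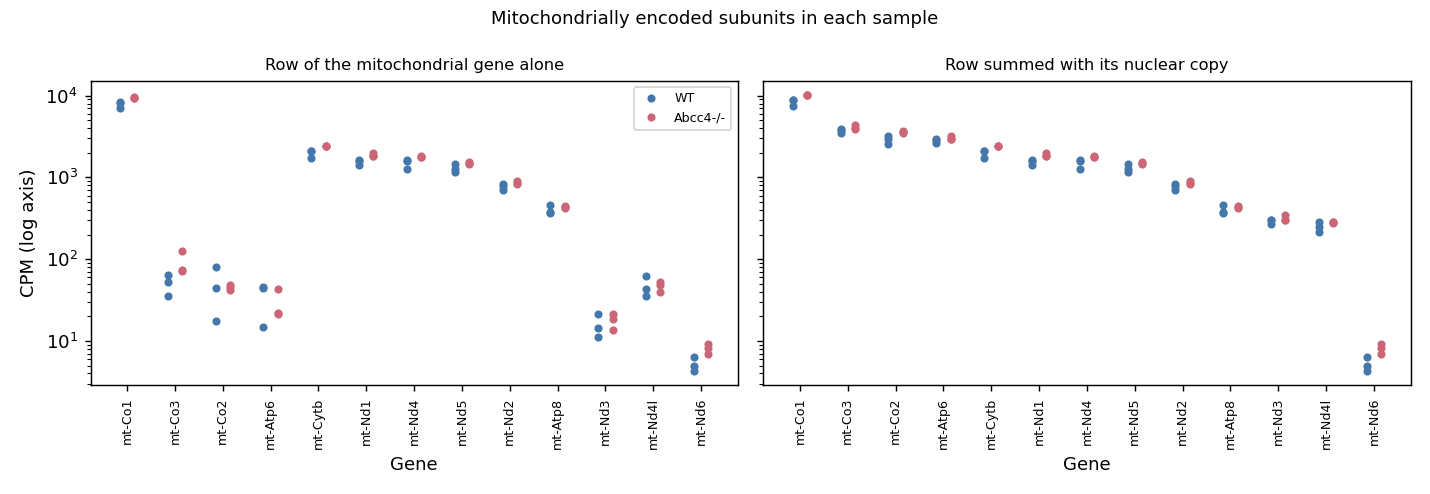
CPM of the 13 mitochondrially encoded subunit genes in each sample on a log axis, from the row of the gene alone (left) and after adding the row of its nuclear copy (right). Points of mt-Co3, mt-Co2 and mt-Atp6 lie below those of mt-Atp8 alone and above those of mt-Cytb after summing, where they also lie closer together.

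Most genes that build the complexes were not called, as held for all tested genes, of which 8.61% were called higher and 8.68% lower. Of 16 complex I assembly genes 2 were called higher and 0 lower: Tmem126b, with 9.73, 10.3 and 10.2 CPM in WT and 14.8, 13.9 and 14.3 CPM in Abcc4-/- (log2 fold change 0.51 ± 0.066, SE; edgeR, adjusted p = 0.00049), and Tmem186 (log2 fold change 0.34; edgeR, adjusted p = 0.0032). Both proteins belong to the assembly intermediate that builds the membrane arm. Among 24 tested complex IV assembly genes, Pet100, Tmem177 and Taco1 were called higher and Sco2, a copper chaperone, lower (log2 fold change -0.30; edgeR, adjusted p = 0.04). Each of these 4 calls was lost in 5 of the 6 fits that left out 1 library, whereas Tmem126b and Tmem186 kept theirs in all 6. On log2(TPM + 1), Tmem126b was called and Tmem186 was not (limma, adjusted p = 0.0135 and 0.076). After centring, both were called (limma, adjusted p = 0.003 and 0.017). Of the 4 complex II assembly genes only Sdhaf2, which helps to attach the flavin to Sdha, was called, with a log2 fold change of 0.18 (edgeR, adjusted p = 0.045), and its call was lost in 4 of these 6 fits. None of 6 complex III and 5 complex V assembly genes was called (unadjusted p below 0.05 for 2 and 0 genes), and the smallest p in these lists belonged to Uqcc2 (edgeR, adjusted p = 0.082) and Tmem242 (edgeR, adjusted p = 0.58). The medians of the lists, from complex I to V, were 0.07, 0.15, 0.075, 0.06 and 0.0036.

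Of 18 tested electron carrier and ubiquinone genes, Coq7, which makes a late step of ubiquinone synthesis, was called higher (log2 fold change 0.23; edgeR, adjusted p = 0.04), in a call lost in 5 of the 6 fits. Cytochrome c itself, Cycs, named after its values were seen, had 107, 114 and 104 CPM in WT and 120, 104 and 105 CPM in Abcc4-/-. None of 21 citric acid cycle genes was called, their median was -0.0024, and the smallest p belonged to Mdh2 (log2 fold change 0.15; edgeR, adjusted p = 0.074). An unadjusted p below 0.05 was reached by 3 of these 21 genes, and by 30.9% of all tested genes.

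Of 24 regulators of respiratory genes and mitochondrial DNA, 3 were called higher and 0 lower, with a median of 0.029. Among all tested genes, 8.61% were called higher. Mterf1a, a mitochondrial transcription termination factor, had 3.88, 4.28 and 4.02 CPM in WT and 6.07, 6.63 and 5.94 CPM in Abcc4-/- (log2 fold change 0.62 ± 0.098, SE; edgeR, adjusted p = 0.0017). Gabpb1, the partner of the DNA-binding protein GABPA, rose by 0.23 on the log2 scale (edgeR, adjusted p = 0.0077), with 42.9, 44.3 and 43.0 CPM in WT and 52.3, 50.2 and 50.2 CPM in Abcc4-/-. Tfam, which packages and transcribes mitochondrial DNA, had 34.8, 34.8 and 34.4 CPM in WT and 41.1, 39.3 and 38.4 CPM in Abcc4-/- (log2 fold change 0.19; edgeR, adjusted p = 0.023). The call of Tfam was lost in 4 of the 6 fits that left out 1 library, and those of Mterf1a and Gabpb1 in 0. On log2(TPM + 1), Mterf1a was called (limma, adjusted p = 0.0077), and Gabpb1 and Tfam were not (limma, adjusted p = 0.14 and 0.47). Tfam was not called on centred TPM either (limma, adjusted p = 0.11). For Nrf1, Gabpa and Yy1, whose motifs were searched above, the log2 fold changes were 0.0055, -0.03 and -0.05, and none was called.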

How the data were processed

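Per the labels' protocols, stranded poly(A) libraries were sequenced as paired-end reads, and aligned and quantified with STAR 2.7 and RSEM 1.3.1 on mm10, per the submitters' processing notes. The sources used here do not give the annotation release. The authors deposited expected counts per gene, not normalized, and TPM, scaled within each sample by the authors. The 92 spike-in entries, all at 0 counts, were left out. Groups came from the genotype labels and replicate numbers from the titles. Whether the samples of a genotype are separate animals is not in the labels. P-values thus reflect only how these samples vary, and that variation may be technical.

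Rounded expected counts, as deposited, went into edgeR 4.0.16 in R 4.3.3 with TMM scaling, its default filter (16493 genes kept), a robust quasi-likelihood test, Benjamini-Hochberg adjustment over all genes and a call at adjusted p below 0.05. CPM used TMM library sizes. TPM was tested with limma 3.58.1 as log2(TPM + 1), also centred on each sample's median over the tested genes; this scale understates changes of low genes. DESeq2 1.42.0 and limma-voom were alternatives. The edgeR and limma tests were checked on simulated data.

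Members and lists were chosen with earlier results of these data known. Named were: called members of each complex (with none called, the 2 with the smallest p); the highest and lowest TPM of each complex; isoforms below 1 TPM with their partners; in other lists the called genes with the 3 smallest p, or the smallest p; mitochondrially encoded genes; Abcc4. Others are said to be named after their values were seen. That holds too for genes with a shown promoter site, genes listed by subunit group, Ndufb4, Ndufb4c, Ndufb1-ps, marker genes, Taco1, Ndufc1, Cyc1 and the genes of the motif factors. Replicate numbers did not pair the samples (correlations of same-numbered deviations -0.0116, 0.00168 and 0.1).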

Additional observations from a re-analysis of the deposited data

How the results depend on the processing

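The number of members called higher, 3 with all libraries, was 6 with DESeq2, 14 without a filter on low counts, 11 with the replicate number as a block (7.41%, 17.1% and 13.6% of members, against 8.39%, 6.28% and 9.26% of all genes), 1 on log2(TPM + 1), 1 on log2(TPM + 0.1) and 0 on log2(TPM + 1) without a filter. Leaving out each library gave 0 to 6, and leaving out WT replicate 3 and Abcc4-/- replicate 1 together, chosen after seeing the data, gave 0. The number called lower, 0 with all libraries, was 1 on log2(TPM + 1), 1 on log2(TPM + 0.1) and 1 without both libraries. With the replicate block, calls over all genes went from 2852 to 3157, although the numbers do not pair the samples, since only the samples numbered 3 each correlated best with their own number. Size factors from DESeq2, upper quartile factors and a filter at 1 CPM gave 3 members called higher, all of them the same genes. Library totals alone (Ndufa5 and Ndufs5), limma-voom (Ndufa13 and Ndufs5), centred TPM (Atp5md and Ndufs5) and thinning (Atp5mpl and Ndufs5) gave 2. On log2(TPM + 1), Ndufa13 and Ndufa5 were not called (limma, adjusted p = 0.14 and 0.18). The median SE of a member's log2 fold change was 0.062, and it was 0.32 for Cox7a1 and 0.30 for Cox4i2, which have few counts.

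On log2(TPM + 1), log2(TPM + 0.1) and log2(TPM + 1) without a filter, the median log2 fold change of complex V was 0.0504, 0.0506 and 0.0504, against 0.11 on counts. On the same 3 scales the log2 fold change, above 0 on counts and called in none of these fits, was -0.032, -0.033 and -0.032 for Uqcrc2, -0.024, -0.024 and -0.024 for Cox7b, and -0.053, -0.053 and -0.053 for Atp5b. It was -0.037, -0.037 and -0.037 for Cox6a1, -0.036, -0.036 and -0.036 for Cox7a2l, -0.019, -0.019 and -0.019 for Tmem242, and -0.026 on all 3 for mt-Nd4l. For mt-Nd4l, whose row holds a minor part of its reads, it was also -0.0086 with library totals alone and -0.00056 with the filter at 1 CPM. The summed level of complexes I, II, IV and V differed by 7.75%, 4.34%, 5.13% and 5.53% on CPM, more than on TPM.

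Without WT replicate 3 and Abcc4-/- replicate 1 together, the median log2 fold change was 0.0304 over all members, 0.017 in complex II, -0.019 in complex IV and 0.029 in complex V. In that fit the log2 fold change was -0.0033 for Atp5b, -0.055 for Cox6a1, -0.019 for Cox7a2l, -0.011 for Tmem242 and -0.15 for mt-Nd4l. It was -0.0805 for Cox8a and -0.095 for Atp5g2. Leaving out each library in turn gave medians between 0.063 and 0.15 over all members, 0.065 and 0.16 in complex I, 0.057 and 0.12 in complex II, 0.046 and 0.15 in complex III, 0.013 and 0.11 in complex IV and 0.081 and 0.16 in complex V.

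For Atp5g2, at -0.01 with all libraries, the log2 fold change was 0.00091 without a filter and 0.0064 after thinning to the smallest library. For mt-Co2, whose row holds few of its reads, it was 0.20 with limma-voom, 0.14 with the replicate block, 0.11, 0.12 and 0.11 on the 3 TPM scales above and 0.20 on centred TPM. Summed with the nuclear copy it was 0.31 for mt-Co2 and 0.10 for mt-Atp6. Leave-one-out ranges were 0.014 to 0.096 for Uqcrc2, 0.11 to 0.18 for Cox7b, 0.021 to 0.073 for Atp5b, -0.072 to 0.0071 for Cox8a, -0.02 to 0.076 for Cox6a1, 0.011 to 0.091 for Cox7a2l, -0.13 to 0.018 for Cox6b2, -0.061 to 0.034 for Atp5g2, 0.022 to 0.085 for Tmem242, -0.46 to 0.56 for mt-Co2, -0.16 to 0.27 for mt-Nd4l and -0.69 to -0.046 for mt-Atp6. The cause of these differences was not tested, and fits that leave out libraries have fewer samples.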
